A study of Mus musculus with 2 samples.

Results

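The dystroglycan complex and the laminin-binding integrins were followed through 9 genes, Dag1, Dmd, Utrn, Sgca, Sgcb, Sgcd, Itga7, Itga6 and Itgb1, named by their symbols in a choice made with earlier results of these data known. All 9 were among the 32285 genes of a single-cell RNA-seq count table from mouse embryos at E14 (embryonic day 14), whose trunks and limbs, without head and viscera, had been dissociated and sorted for tdT, a red fluorescent reporter. One library was made per genotype, both with 10x Genomics 3′ chemistry, in which each captured mRNA molecule is counted once as a unique molecular identifier (UMI). In both genotypes Cre recombinase was driven by the Myf5 promoter and switched on the Rosa26-LSL-tdtomato reporter, so that cells with present or past Myf5 activity were labelled. The mutant embryos (SRSF2f/f/Myf5-Cre/tdT, MKO/tdT) carried 2 floxed copies of the splicing factor gene Srsf2, to be deleted in these cells, and littermates with 1 floxed copy (SRSF2f/w/Myf5-Cre/tdT, Het/tdT) were the controls. The number of embryos behind each library was not given in the sources used here.

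The genotype of each library carries a conflict that every comparison between libraries inherits. The quality pages of the study head the library of 15268 barcodes Het/tdT and the library of 12498 barcodes MKO/tdT, while the titles of the deposited samples give the opposite genotypes. In the authors' summaries the library of 15268 barcodes is named WT and that of 12498 barcodes KO, the same order as on the quality pages. The headings of the quality pages are used here for "the library labelled Het/tdT" and "the library labelled MKO/tdT", and under the sample titles every direction between the libraries would change sign. Srsf2, the targeted gene, stood at 282 CPM (counts scaled to 1000000 UMIs of the same cells, exact 95% Poisson interval 275 to 290) in Pax7-positive muscle cells of the library labelled Het/tdT and at 188 (155 to 225) in those of the library labelled MKO/tdT. In Myog-high muscle cells its level was 213 (206 to 221) and 167 (141 to 196) CPM. All 14 cell populations described next held less Srsf2 in MKO/tdT than in Het/tdT, and of the kept cells 0.358% were Pax7-positive and 0.522% Myog-high muscle cells in MKO/tdT, against 8.71% and 7.45% in Het/tdT. Since the 3′ reads need not lie in the deleted part of the gene, these levels check the label without settling it.

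After the filters on depth and on mitochondrial UMIs, 12523 cells remained in Het/tdT, with a median of 10751 UMIs, and 10345 in MKO/tdT, with a median of 9480. Cells were placed in 14 populations by fixed limits on marker UMIs, and the 398 and 393 cells that met the limits of 2 populations were left out. A further 5791 cells of Het/tdT (46.2%) and 5271 of MKO/tdT (51.0%) met the limits of no population. The population levels below thus rest on 6334 and 4681 cells. Pax7-positive muscle cells held at least 1 Pax7 UMI, at least 1 UMI of Myf5 and Myod1 together and at most 4 of Myog, and stand for myogenic progenitors and myoblasts. Myog-high muscle cells held at least 5 UMIs of Myog, the transcription factor of terminal muscle differentiation. There were 1091 Pax7-positive and 933 Myog-high cells in Het/tdT but 37 and 54 in MKO/tdT, so that each muscle population of MKO/tdT rests on 618016 and 900134 UMIs in all. Of 4 further markers, Msc and Myf6 were highest in the Pax7-positive cells of either library, whereas Cdh15 was highest in Myog-high and Met in keratinocyte-like cells. All 4 further markers of Myog-high cells (Mymk, Mylpf, Actc1 and Chrna1) peaked there. Among the other populations the check was weakest for fibroblast-like cells, where Twist2 alone of 4 markers was highest. Neural progenitor-like cells met it for 2 of 4 (Pax6 and Hes5), and Schwann-like cells of Het/tdT for 2 of 4 (Cdh19 and Erbb3, while Foxd3 was highest in neural progenitor-like cells). The libraries shared 74 barcode sequences, which marked 9 muscle cells in Het/tdT and 0 in MKO/tdT. As there was 1 library per genotype, there is no biological replicate, no test between genotypes was possible, none was run between populations, and all intervals below cover counting error alone.

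Dystroglycan is made from the Dag1 transcript as an extracellular subunit, which binds laminin in the basement membrane through its sugar chains, and a membrane-spanning subunit, which binds dystrophin inside the cell. Dystrophin (Dmd), or its relative utrophin (Utrn), ties this receptor to the actin cytoskeleton, and the sarcoglycans (Sgca, Sgcb and Sgcd for the alpha, beta and delta chains) form a stabilising complex beside it in the muscle membrane. The integrins α7β1 and α6β1, encoded by Itga7 or Itga6 together with Itgb1, are a second class of laminin receptor. Loss of several of these proteins causes muscular dystrophy, and in the embryo laminin receptors also anchor muscle progenitors within the forming basement membrane.

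By GENCODE annotation of GRCm38, the build of the files, Dag1 lies on chr9:108204634-108263958, Dmd on chrX:82948870-85206141, Utrn on chr10:12382188-12869365, Sgca on chr11:94962791-94976327, Sgcb on chr5:73632749-73647790 and Sgcd on chr11:46896253-47988969. Itga7 lies on chr10:128933818-128958282, Itga6 on chr2:71745616-71858416 and Itgb1 on chr8:128685654-128733200. Reads of a 3′ library fall near transcript ends, so long and short products of a gene cannot be told apart where they share the end. All 3 coding transcripts of Dmd end within the last 5000 bases of the gene although they span between 154086 and 2257239 bases, and the Dmd values below therefore sum full-length and short forms. The coding transcripts of Itga6 and of Itga7, 3 each, likewise end within 5000 bases of one another.

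Sgca and Sgcb were both higher in Myog-high than in Pax7-positive cells, and the stretch before each of the genes is shown because they went together. Promoters from RefSeq matched 7 of the 9 genes (none matched Itga7 or Itga6). The lines below run 5′ to 3′ on the minus strand in GRCm38.p6, at chr11:94976328-94976577 for Sgca and at chr5:73647791-73647987 for Sgcb, where each ends at the last base before the gene in the GENCODE annotation, and capitals mark CANNTG, the E-box core recognised by MyoD and myogenin.
Sgca: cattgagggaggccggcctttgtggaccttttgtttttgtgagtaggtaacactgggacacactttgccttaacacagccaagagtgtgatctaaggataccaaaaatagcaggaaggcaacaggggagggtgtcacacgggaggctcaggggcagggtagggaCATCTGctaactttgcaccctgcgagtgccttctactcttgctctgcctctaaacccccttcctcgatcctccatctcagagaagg
Sgcb: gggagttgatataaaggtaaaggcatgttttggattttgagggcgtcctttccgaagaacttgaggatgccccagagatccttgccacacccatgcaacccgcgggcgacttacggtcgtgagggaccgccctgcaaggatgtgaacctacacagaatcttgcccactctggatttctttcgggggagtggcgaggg
Sgca held 1 such match, CATCTG, which ends 80 bases before the start, and Sgcb held none in the 250 bases before its RefSeq start, which lies inside the GENCODE gene. The palindrome CANNTG, which reads alike on both strands, occurs in 66.2% of the 32851 RefSeq promoters of that length. CAGCTG, found in 13% of them, was in none of the 9 promoter entries of the members, and neither was CACCTG or its reverse complement CAGGTG, found in 17.2%. Utrn, which was lower in Myog-high cells, held the most CANNTG matches, 7, among them a CACATG and a CATGTG that overlap. Its RefSeq stretch, chr10:12861736-12861985, lies inside the GENCODE gene, unlike that of Sgca.

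In the library labelled Het/tdT, where both muscle populations are large, the members parted into 3 groups between Pax7-positive and Myog-high cells. Sgca and Sgcb were higher in Myog-high cells, Dmd, Utrn and Itga7 were lower, and Dag1, Sgcd, Itga6 and Itgb1 stayed within 1.5-fold. All 9 members had enough UMIs to be compared, taken as at least 10 expected on either side at an equal level. Being 1.5-fold higher or lower is common in this step, which 12.9% and 24.4% of 12736 genes met, so the counts of 2 higher and 3 lower members say little by themselves. The median log2 ratio of the 9 genes was -0.06, against -0.17 for all genes.

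Dag1 was the steadiest member. Its level was 151 CPM (145 to 157) in Pax7-positive and 145 CPM (139 to 152) in Myog-high cells of Het/tdT, a log2 ratio of -0.06 (-0.14 to 0.03). The interval leaves no room for a change of 1.5-fold in either direction, for counting error. Dmd held 176 UMIs in Pax7-positive and 60 in Myog-high cells, or 9.80 CPM (8.40 to 11.4) and 4.23 CPM (3.23 to 5.44), a log2 ratio of -1.21 (-1.66 to -0.78). Utrn stood at 44.0 CPM in Pax7-positive and 25.2 CPM in Myog-high cells (log2 ratio -0.80, -0.99 to -0.62). Both actin-linking genes were thus lower in the differentiating cells while the receptor gene they connect to was level.

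Sgca held 159 UMIs in Pax7-positive and 320 in Myog-high cells of Het/tdT, or 8.85 CPM (7.53 to 10.3) and 22.5 CPM (20.1 to 25.2), a log2 ratio of 1.35 (1.07 to 1.63). Sgcb went from 20.8 CPM to 60.9 CPM (56.9 to 65.1), a log2 ratio of 1.55 (1.38 to 1.73). Of all genes compared, 94.8% had a lower ratio than Sgca and 95.7% a lower one than Sgcb. Sgcd, the delta chain of the same complex, did not follow them, with 3.95 CPM and 4.16 CPM and a log2 ratio of 0.07 (-0.45 to 0.59).

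The integrin genes divided by chain. Itga7, the muscle-type laminin-binding α chain, was at 19.9 CPM (17.9 to 22.0) in Pax7-positive and at 10.4 CPM (8.82 to 12.3) in Myog-high cells, a log2 ratio of -0.93 (-1.22 to -0.65). Itga6 differed in the other direction, from 36.8 to 47.4 CPM (log2 ratio 0.36, 0.21 to 0.52). Their common partner Itgb1 was lower in Myog-high cells, with 342 CPM against 240 CPM and a log2 ratio of -0.51 (-0.57 to -0.45), which is short of 1.5-fold.

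Splitting the muscle cells by Myog UMIs showed how these differences were spread over Myog levels. A Myog UMI was held by 26.4% of Pax7-positive cells of Het/tdT. Outside muscle the share ran from 5.26% of keratinocyte-like to 17.5% of pericyte-like cells of that library. The part of Myog RNA from other cells in the step with 1 to 4 Myog UMIs was not tested. In the 803 Pax7-positive cells of Het/tdT with 0 Myog UMIs, the 288 with 1 to 4, the 539 Myog-high cells with 5 to 19 and the 394 with 20 or more, Sgca was at 7.88, 11.3, 18.0 and 28.1 CPM. Sgcb was at 18.6, 26.0, 49.9 and 74.3 CPM over the same steps, so both sarcoglycan genes were higher at each step than at the one before, with overlapping intervals only for Sgca between the Pax7-positive steps. Their log2 ratios between the ends of this series were 1.83 (1.47 to 2.20) and 2.0 (1.77 to 2.23). Utrn went the other way at every step, from 47.1 to 36.3, 27.1 and 22.9 CPM, with overlapping intervals between the last 2 steps (23.6 to 31.0 and 19.3 to 26.9). Itgb1 was lower at each step too, from 353 to 316, 253 and 224 CPM, with no overlap between neighbours. Between the ends its log2 ratio was -0.66 (-0.74 to -0.57), past the 1.5-fold that it missed between the populations. Itga6 also passed 1.5-fold between the ends, at 0.62 (0.41 to 0.82), from 35.4 to 40.2, 41.7 and 54.2 CPM. Both intervals hold smaller changes too. Dmd was at 10.1, 9.13, 4.74 and 3.61 CPM, with a log2 ratio of -1.48 (-2.19 to -0.83). Itga7 was at 20.7 and 17.9 CPM in the Pax7-positive steps and at 10.9 and 9.88 CPM in the Myog-high steps, so that most of its difference lay between the populations and neighbouring steps within a population had overlapping intervals. Dag1 stood at 151, 152 and 155 CPM before a lower last value of 133 (124 to 142).

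**Figure D1:**
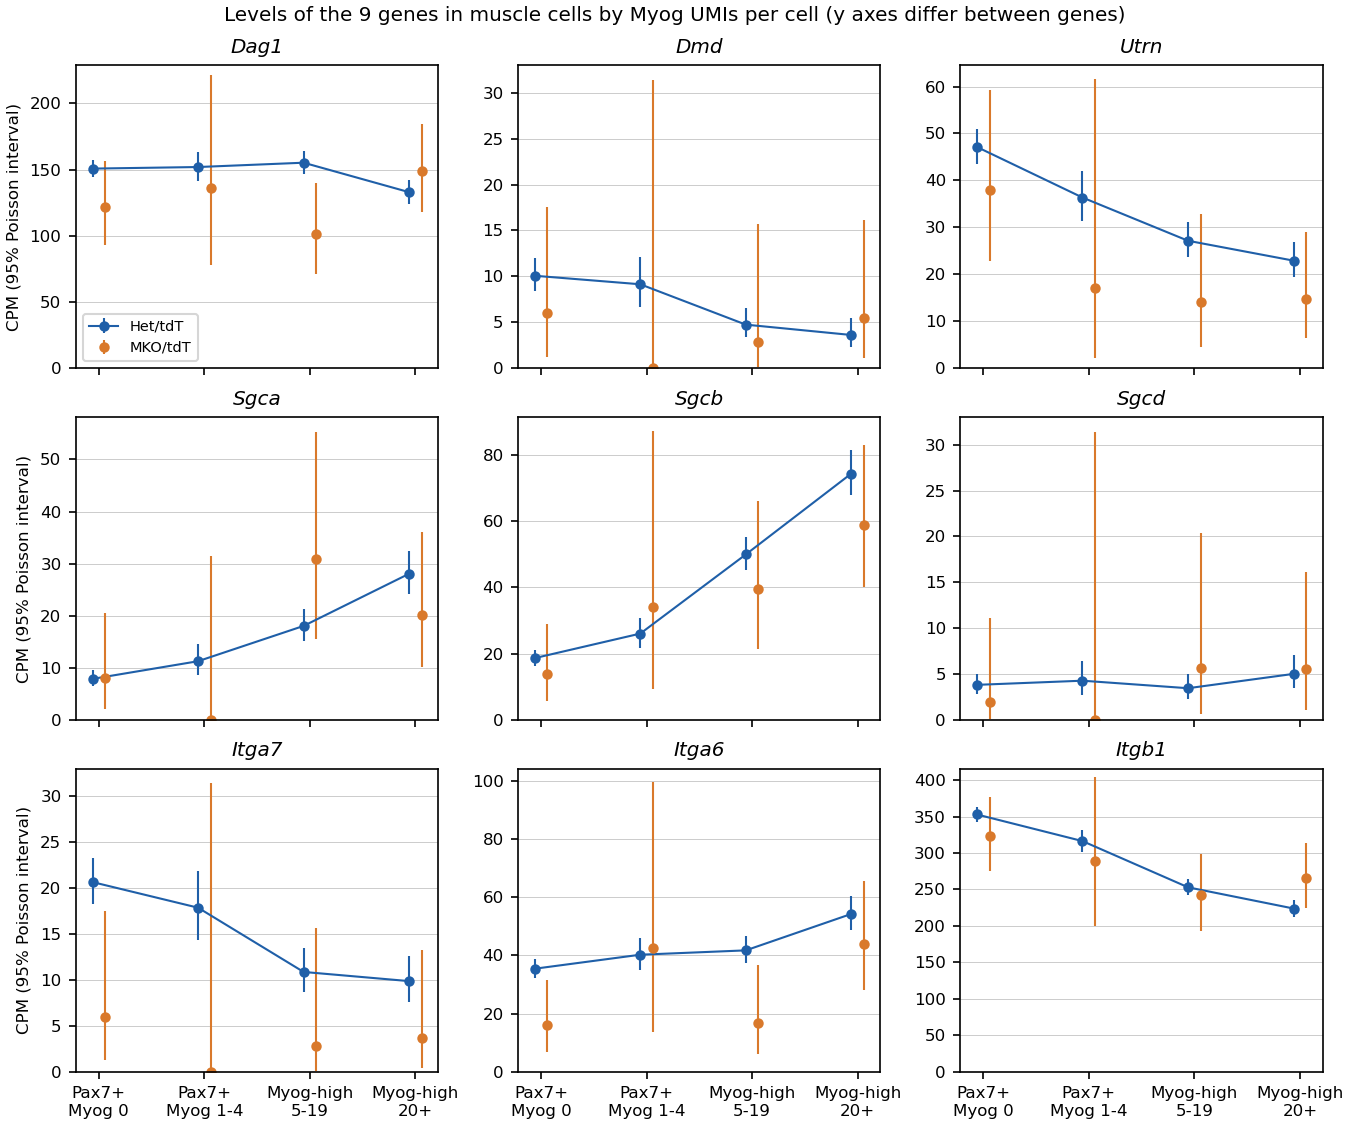
Level (y axis, CPM with exact 95% Poisson interval) of each of the 9 genes in muscle cells grouped by Myog UMIs per cell (x axis), with Het/tdT as joined blue points and MKO/tdT as orange points. Sgca and Sgcb climb over the 4 steps of Het/tdT, from 7.88 to 28.1 and from 18.6 to 74.3 CPM, and Itga6 from 35.4 to 54.2 CPM. Utrn, Dmd, Itga7 and Itgb1 descend, and the intervals of MKO/tdT are wide because its steps hold 31, 6, 23 and 31 cells.

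A further split, chosen after the values had been seen, divided the Myog-high cells of Het/tdT by Myh3, the embryonic myosin heavy chain of the sarcomere. Compared with the 539 cells without a Myh3 UMI, the 157 cells with 5 or more held Itga6 at 85.3 against 33.4 CPM, a log2 ratio of 1.35 (1.09 to 1.61). Sgcd, level until then, was at 9.65 against 2.81 CPM on 25 and 23 UMIs (log2 ratio 1.78, 0.90 to 2.66). Dmd was at 7.72 against 3.18 CPM on 20 and 26 UMIs (1.28, 0.36 to 2.18) and Utrn at 33.6 against 23.2 CPM (0.53, 0.15 to 0.90). Dag1 was lower in the cells with Myh3, at 110 against 158 CPM (-0.52, -0.71 to -0.33), and Itga7 was at 10.8 CPM in the cells with Myh3, with a log2 ratio of 0.04 (-0.63 to 0.67). Dmd and Utrn, lower in Myog-high than in Pax7-positive cells, were thus higher in the Myog-high cells with Myh3 than in those without.

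In the library labelled MKO/tdT the same comparison between populations could be made for 6 members, since Dmd, Sgcd and Itga7 had too few UMIs. Sgca, Sgcb and Itga6 were at least 1.5-fold higher in Myog-high cells and Utrn was lower, where 14.1% of 5531 genes were higher and 22.5% lower. Sgca went from 4 UMIs in 37 cells to 22 UMIs in 54 cells, 6.47 to 24.4 CPM, with a log2 ratio of 1.92 (0.36 to 3.91). With a mitochondrial limit of 5% or at least 2 Pax7 UMIs the Sgca ratio was 2.04 and 1.84, but too few UMIs were then expected for it to be counted. Sgcb went from 17.8 to 51.1 CPM (1.52, 0.55 to 2.62) and Utrn from 34.0 to 14.4 CPM (-1.23, -2.35 to -0.17). The interval of Itga6, from 21.0 to 33.3 CPM, reached from -0.32 to 1.73 and so included no difference. Dag1 was again level, with 125 and 130 CPM (0.06, -0.37 to 0.50). The directions of Sgca, Sgcb, Utrn, Itga6 and Itgb1 were the same in either library, but the sizes in MKO/tdT are loose.

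**Figure D2:**
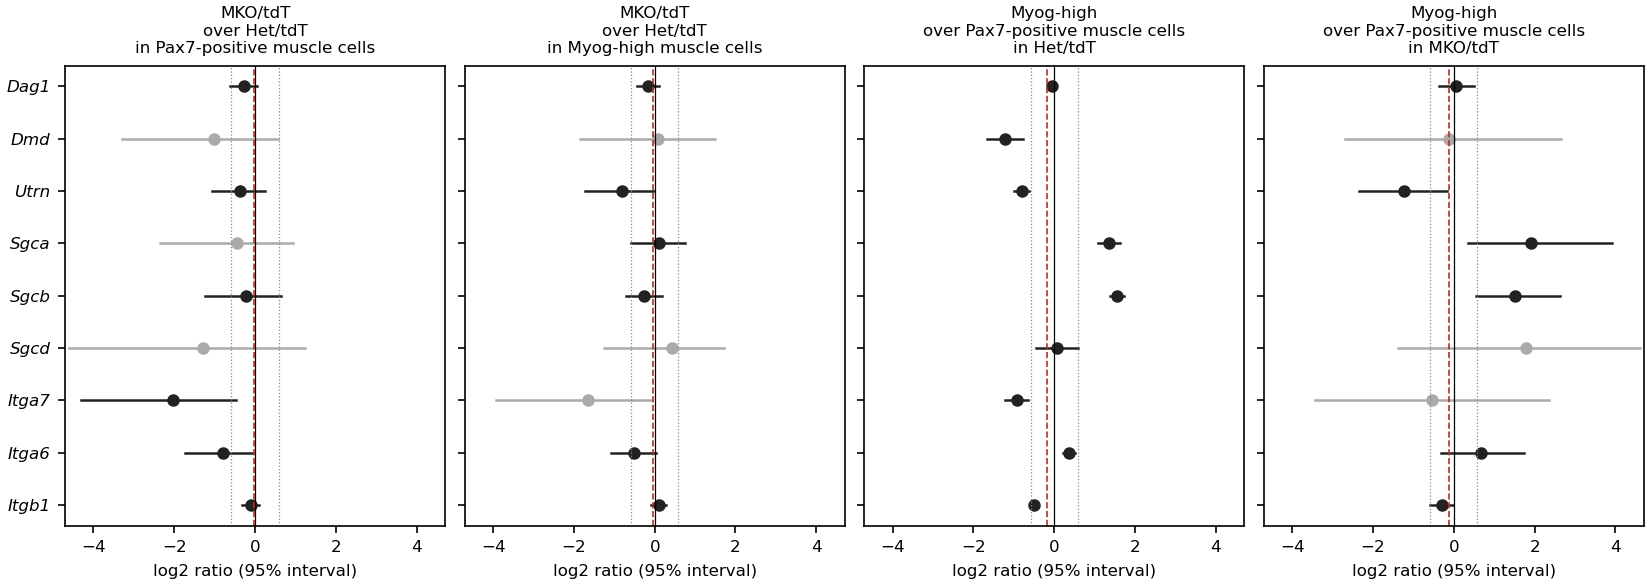
Log2 ratio (x axis) of the 9 genes (rows) in 4 comparisons, each point with its exact 95% interval, grey where fewer than 10 UMIs were expected on a side, with the median of all genes as a dashed red line and 1.5-fold as dotted lines; intervals that run past the edge are clipped. Sgca and Sgcb lie to the right and Utrn to the left in both Myog-high over Pax7-positive panels, and most intervals between the libraries cross 0.

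Other genes of the same machinery gave context for this step in Het/tdT, in which 12.9% of all genes were at least 1.5-fold higher and 24.4% lower. Among dystrophin-associated proteins, 3 of the 8 with enough UMIs were at least 1.5-fold higher in Myog-high cells and 2 were lower, with a median log2 ratio of 0.51. The largest were Cav3, the muscle caveolin, from 2.73 to 30.5 CPM (log2 ratio 3.48, 3.06 to 3.94), and the syntrophin gene Sntb1 (1.71, 1.26 to 2.17). A second syntrophin gene, Sntb2, was lower (-1.17, -1.42 to -0.92), as was the dystrobrevin gene Dtnb (-0.88, -1.28 to -0.48), while the other dystrobrevin gene, Dtna, was higher (0.72, 0.32 to 1.12). Sarcoglycan genes thus differed among themselves, with Sgca and Sgcb higher in Myog-high cells and Sgcd level. Sgce, the epsilon chain found outside muscle too, was lower but just within 1.5-fold. It stood at 24.0 CPM in Pax7-positive and 16.1 CPM in Myog-high cells (-0.58, -0.81 to -0.34).

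Most enzymes that build the laminin-binding sugar chain of dystroglycan stayed within 1.5-fold in Het/tdT. All 13 had enough UMIs, 0 were higher and 1 lower by 1.5-fold. The median log2 ratio was -0.13, close to the -0.17 of all genes. The lower gene was Dpm3, a subunit of dolichol-phosphate mannose synthase (-0.69, -0.81 to -0.58).

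Most ligand genes were lower in Myog-high cells. Of 10 laminin, nidogen, agrin and perlecan genes with enough UMIs, 8 were at least 1.5-fold lower in Myog-high cells and 0 higher, and the median log2 ratio was -1.13. Lama4 was at 43.1 CPM in Pax7-positive and 12 CPM in Myog-high cells (-1.85, -2.09 to -1.61), Lamc1 at 53.3 and 15.5 CPM (-1.78, -2.0 to -1.57), and the nidogen gene Nid1 at 33.5 and 13.4 CPM (-1.32, -1.56 to -1.08). Lama2, the α chain of the laminin of adult muscle, was the least lowered of the 8, from 36.1 to 23.3 CPM (-0.63, -0.82 to -0.44). All 3 collagen IV genes with enough UMIs were lower too, with Col4a1 at 457 and 148 CPM (-1.63, -1.70 to -1.56), Col4a2 at -1.80 (-1.90 to -1.70) and Col4a5 at -0.72 (-1.33 to -0.13). Col1a1, a collagen transcript of fibroblasts and bone, stood at 204 and 206 CPM in the same populations.

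Among the other laminin receptors, Bcam, the Lutheran receptor for the laminin α5 chain, was higher in Myog-high cells (19.1 to 38.0 CPM, 0.99, 0.79 to 1.19), and the collagen and laminin receptor Itga1 was lower (9.96 to 1.83 CPM, -2.44, -3.10 to -1.84). Of 9 proteins that link integrins to actin, Itgb1bp2, a muscle-enriched binder of the β1 chain known as melusin, was higher (2.78, 1.88 to 3.80), Parva was lower (-0.74, -0.90 to -0.58) and the rest stayed within 1.5-fold. All 8 muscle proteins taken as markers of differentiation were higher, with a median log2 ratio of 5.76 when Ckm, at 0 UMIs in Pax7-positive cells, is set at a floor of 3 counts. Myh3 had the largest ratio with UMIs on both sides (7.66, 7.01 to 8.39), followed by Mylpf (6.01, 5.80 to 6.23).

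**Figure D3:**
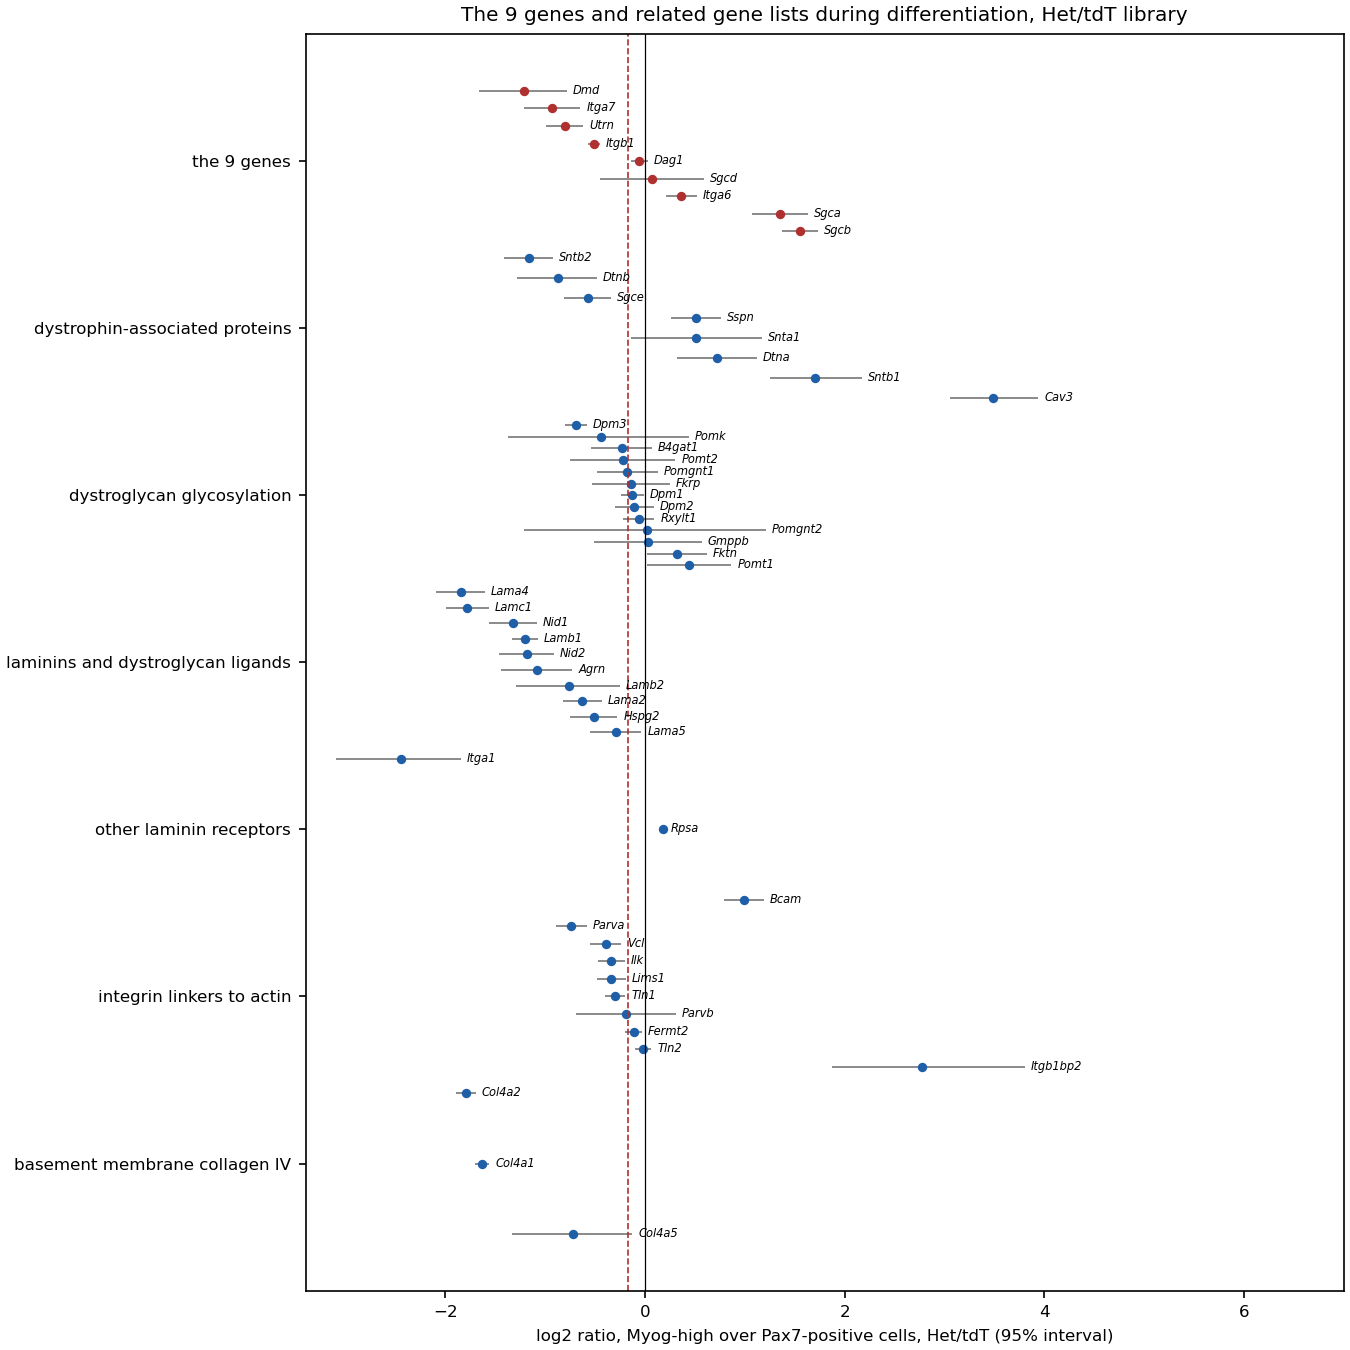
Log2 ratio of Myog-high over Pax7-positive muscle cells in the library labelled Het/tdT (x axis, exact 95% interval) for the 9 genes in red and, in blue, the genes with enough UMIs of 6 related lists. The dashed red line is the median of all genes at -0.17, the laminins with their co-ligands and the collagen IV genes lie left of it with a median of -1.13 and -1.63, and the glycosylation enzymes lie around it.

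Within MKO/tdT, where 14.1% of all genes were at least 1.5-fold higher and 22.5% lower, the ligands gave the same picture on fewer UMIs. Of 4 laminin and related genes with enough UMIs, 3 were lower in Myog-high cells, Lamb1 (-1.54, -2.35 to -0.77), Nid2 (-1.40, -2.61 to -0.27) and Lamc1 (-1.19, -2.27 to -0.16), and both Col4a1 (-1.84, -2.22 to -1.48) and Col4a2 (-1.49, -1.97 to -1.03) were lower. Of 3 dystrophin-associated genes, 2 were higher and 1 lower, and Cav3 was higher on 4 and 41 UMIs (2.82, 1.35 to 4.76), as was Bcam (1.23, 0.27 to 2.29), and Parva was lower (-0.92, -1.84 to -0.02). Of 4 glycosylation genes, 0 were higher and 1 was lower, with a median log2 ratio of -0.46 against -0.13 for all genes. Sgce had 16 and 7 UMIs (-1.74, -3.26 to -0.37) and Itgb1bp2 had 1 and 23 (3.98, 1.36 to 9.35), both with too few expected to be counted. Of 7 differentiation markers with enough UMIs, 7 were higher. Myh3 had 0 UMIs in Pax7-positive and 209 in Myog-high cells. Acta1 (8.03, 5.54 to 13.3, on 1 and 381 UMIs), Myl1 (7.59, 5.73 to 10.6, on 2 and 562) and Tnnc1 (6.97, 5.11 to 10.0, on 2 and 366) had the largest ratios with UMIs on both sides, and their intervals overlap too far to order them.

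Between the libraries, few members differed in Pax7-positive cells beyond what counting allows. Of 6 members with enough UMIs, 2 were at least 1.5-fold lower in the library labelled MKO/tdT and 0 were higher, where 10.3% of 5821 genes were lower and 3.01% higher. Itga7 held 357 UMIs in the 1091 cells of Het/tdT and 3 UMIs in the 37 cells of MKO/tdT, or 19.9 CPM (17.9 to 22.0) against 4.85 CPM (1.0 to 14.2), a log2 ratio of -2.03 (-4.32 to -0.47). Itga6 held 661 and 13 UMIs, 36.8 against 21.0 CPM, with a log2 ratio of -0.81 (-1.72 to -0.02). The intervals of Dag1 (151 against 125 CPM, -0.28, -0.62 to 0.05), Utrn (44.0 against 34.0 CPM, -0.37, -1.07 to 0.25), Sgcb (20.8 against 17.8 CPM, -0.22, -1.24 to 0.63) and Itgb1 (342 against 317 CPM, -0.11, -0.32 to 0.09) included no difference. Dmd with 3 UMIs, Sgca with 4 and Sgcd with 1 in MKO/tdT were too few to compare. Under the sample titles the same values would make Itga7 and Itga6 higher in the mutant.

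The call of Itga7 rests on 3 UMIs. It was no longer made when at least 2 Pax7 UMIs were asked of a cell, that of Itga6 ended when muscle cells that also met a second population were kept, and neither was made with cells thinned to 2000 UMIs or with at least 30 expected UMIs. Myog itself was at 26.7 CPM in the Pax7-positive cells of Het/tdT and at 9.71 CPM in those of MKO/tdT. Outside muscle a Myog UMI was also held by more cells of Het/tdT. The shares were 13.5% and 1.43% of fibroblast-like and 12.7% and 1.31% of chondrocyte-like cells of Het/tdT and MKO/tdT. The part of Myog RNA from other cells in the Myog levels of Pax7-positive cells was not tested. The proliferation marker Mki67 stood at 296 CPM in Pax7-positive cells of Het/tdT and at 238 in those of MKO/tdT, and Pax7-positive cells of Het/tdT with 2 or more UMIs of Mki67 and Top2a held Itga6 at 38.7 CPM against 26.2 CPM in those with 0 (log2 ratio 0.56, 0.12 to 1.05). The part of Myog or of the cell cycle in the differences between libraries was not tested.

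In Myog-high cells 1 of 6 members, Utrn, was at least 1.5-fold lower in the library labelled MKO/tdT and 0 were higher, where 9.8% of 6591 genes were lower and 3.49% higher. Utrn held 358 UMIs in 933 cells and 13 UMIs in 54 cells, 25.2 against 14.4 CPM, a log2 ratio of -0.80 (-1.73 to -0.01). With each cell thinned to 2000 UMIs the ratio turned to 0.37, on 3 Utrn UMIs in MKO/tdT, and no member was counted past 2-fold or with at least 30 expected UMIs. Itga7 was again at few UMIs in MKO/tdT, 3 against 148 in Het/tdT, or 3.33 against 10.4 CPM (-1.65, -3.94 to -0.07), but had too few expected to be counted. Dag1 (145 against 130 CPM, -0.16, -0.44 to 0.11), Sgca (22.5 against 24.4 CPM, 0.12, -0.58 to 0.74), Sgcb (60.9 against 51.1 CPM, -0.25, -0.71 to 0.18), Itga6 (47.4 against 33.3 CPM, -0.51, -1.09 to 0.02) and Itgb1 (240 against 257 CPM, 0.10, -0.10 to 0.29) had intervals that included no difference. For Dag1 and Itgb1 the intervals leave out a 1.5-fold change, whereas for Sgca, Sgcb and Itga6 they do not. Under the sample titles Utrn would be higher in the mutant.

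Ligand and linker genes with enough UMIs were lower in MKO/tdT wherever they passed 1.5-fold. Itgb1bp2, with too few expected UMIs to be counted, was higher in its Myog-high cells, on 65 and 23 UMIs in Het/tdT and MKO/tdT (4.58 against 25.6 CPM, 2.48, 1.73 to 3.19). Of 8 laminin and related genes with enough UMIs in Pax7-positive cells, 4 were lower in MKO/tdT and 0 higher. Among all genes there, 10.3% were lower and 3.01% higher. The median log2 ratio was -0.63, against -0.03 for all genes. The intervals of Nid1 (33.5 against 12.9 CPM, -1.37, -2.59 to -0.38) and Lama4 (43.1 against 21.0 CPM, -1.03, -1.95 to -0.25) left out no difference, as did that of the integrin-linked kinase gene Ilk (67.6 against 40.5 CPM, -0.74, -1.37 to -0.17). In Myog-high cells Lamb1 (-0.91, -1.59 to -0.30) and Col4a1 (-0.60, -0.92 to -0.29) were lower. Col1a1 moved with these genes, at 204 and 48.5 CPM in Pax7-positive cells and at 206 and 48.9 CPM in Myog-high cells of Het/tdT and MKO/tdT. In erythroid-like cells it stood at 111 and 132 CPM and in keratinocyte-like cells at 203 and 166 CPM, and the part of connective tissue RNA in the ligand levels was not tested. The glycosylation enzymes showed 0 genes past 1.5-fold out of 4 in Pax7-positive and out of 5 in Myog-high cells. Dystrophin-associated proteins had 0 of 2 and 1 of 4 past it, the other laminin receptors 0 of 2 in either population. Of the differentiation markers Actc1 was lower in Pax7-positive cells of MKO/tdT (262 against 147 CPM), and Acta1 (131 against 423 CPM), Tnnc1 (147 against 407 CPM) and Mylpf (647 against 1250 CPM) were higher in its Myog-high cells.

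Across the 14 populations each member had its own order, given here within a gene since values of different genes are not scaled by length. Dag1 was highest in neural progenitor-like cells (162 CPM, 114 to 222), Pax7-positive, Myog-high and Schwann-like cells (130 CPM, 108 to 156) of Het/tdT, whose intervals overlap in sequence, and in MKO/tdT the same populations led. It was lowest in immune-like (12.3 and 15.6 CPM in Het/tdT and MKO/tdT) and erythroid-like cells (1.71 and 1.39 CPM, on 1 UMI each). The 2 muscle populations supplied 38.2% of all Dag1 UMIs of Het/tdT and 3.5% of those of MKO/tdT. Over all kept cells, placed in a population or not, the level was 82.5 and 45.1 CPM.

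Dmd was not led by the muscle populations among the sorted cells. The paper describes the cells it isolated as mononuclear, so multinucleated fibres fall outside these levels. Schwann-like (40.2 CPM, 28.3 to 55.5), neural progenitor-like (38.3 CPM, 17.5 to 72.7) and pericyte-like cells (25.2 CPM, 15.8 to 38.2) of Het/tdT all held more than Pax7-positive cells (9.80 CPM, 8.40 to 11.4). The leading populations were the same in MKO/tdT, at 32.6, 50.2 and 44.0 CPM. Since the reads sum all forms that share the 3′ end, they do not say which form was present in which population. Utrn peaked in Schwann-like (148 CPM, 124 to 175) and endothelial-like cells (136 CPM, 126 to 147), whose intervals overlapped, and apart from erythroid-like cells its lowest level of Het/tdT was that of Myog-high cells (25.2 CPM).

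Sgca was the member most restricted to muscle. In Het/tdT, Myog-high and Pax7-positive cells (22.5 and 8.85 CPM) were followed by osteoblast-like cells at 5.51 CPM (3.31 to 8.60), and every other population was at or below 1.32 CPM. Sgcb was broader. Myog-high cells (60.9 CPM) and neural progenitor-like cells (59.6 CPM, 32.6 to 99.9) led in Het/tdT, and tendon-like and fibroblast-like cells followed at 28.8 and 27.3 CPM. Sgcd was higher in connective tissue and Schwann-like cells than in the muscle cells sampled. It stood at 37.0 CPM (25.6 to 51.7) in Schwann-like, 24.5 in fibroblast-like, 23.6 in tendon-like, 22.2 in chondrocyte-like and 20.9 in osteoblast-like cells of Het/tdT. The muscle populations held 3.95 and 4.16 CPM.

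Itga7 was highest in pericyte-like (25.2 CPM, 15.8 to 38.2) and Pax7-positive cells (19.9 CPM, 17.9 to 22.0) of Het/tdT, with overlapping intervals. Itga6 was highest in Schwann-like (236 CPM, 206 to 270) and endothelial-like cells (227 CPM, 214 to 241), followed by keratinocyte-like (162 CPM), pericyte-like (150 CPM) and neural progenitor-like cells (149 CPM). Osteoblast-like cells, at 7.53 CPM (4.92 to 11), were lowest but for erythroid-like cells, with an interval that overlapped that of neuron-like cells. Itgb1 was found in every population, from 689 CPM (635 to 747) in pericyte-like and 610 CPM (589 to 633) in endothelial-like to 196 CPM (174 to 220) in immune-like and 25.7 CPM in erythroid-like cells of Het/tdT.

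**Figure D4:**
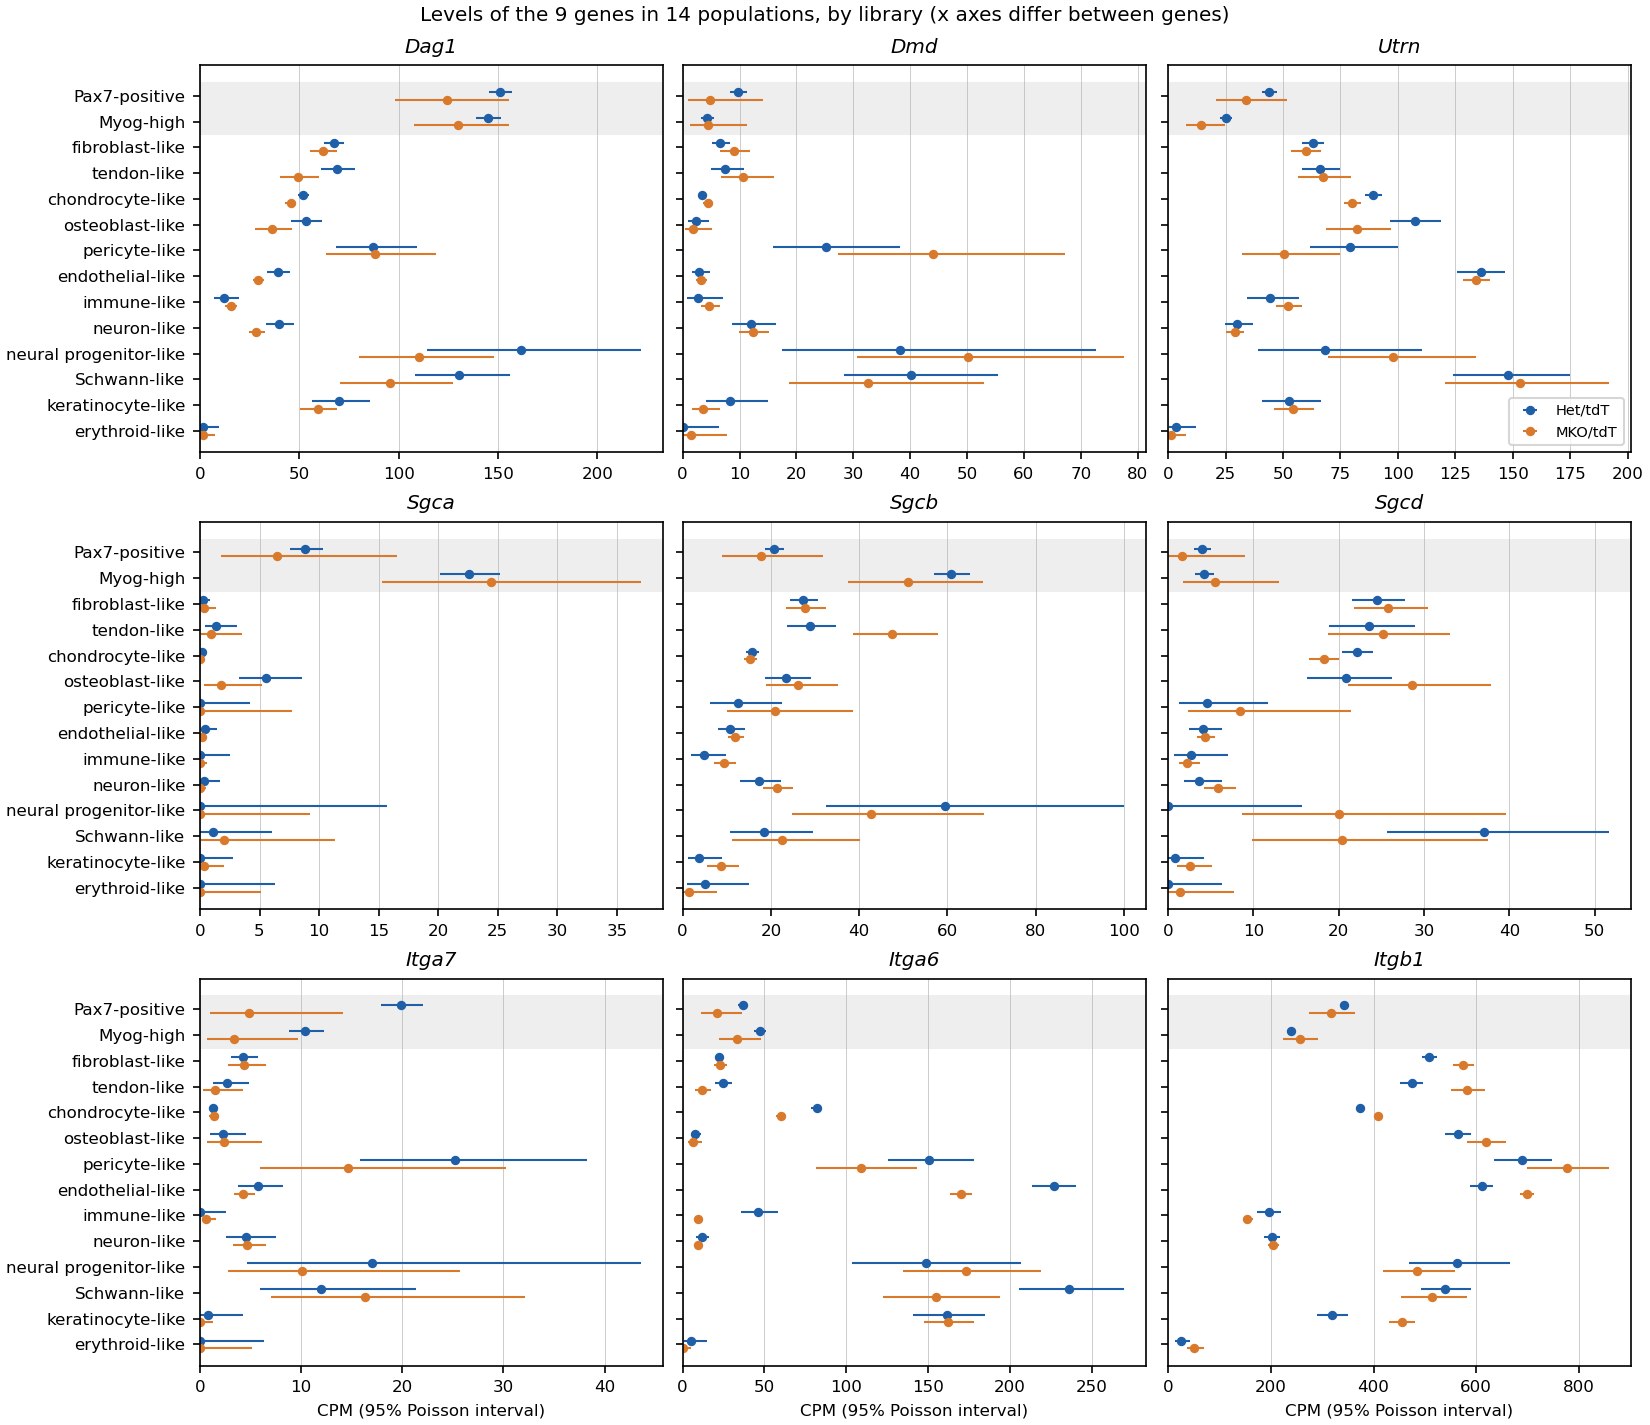
Level (x axis, CPM with exact 95% Poisson interval, scale differing between genes) of each of the 9 genes in 14 populations (rows), with Het/tdT in blue, MKO/tdT in orange and the muscle populations shaded. Sgca stands out in muscle, Sgcd in fibroblast-, tendon-, chondrocyte-, osteoblast- and Schwann-like cells at 20.9 to 37.0 CPM in Het/tdT, Dmd in Schwann-, neural progenitor- and pericyte-like cells, and Itga6 in Schwann- and endothelial-like cells.

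Likeness of pattern was measured as Pearson's r of log2(CPM + 1) over the 28 sums of 14 populations in 2 libraries, among 12635 genes with at least 500 UMIs. These are descriptions over sums that share libraries, sequencing depth and cell type, and no test was made. The sums include erythroid-like cells, where broadly found members were lowest. Utrn stood there at 3.42 and 1.39 CPM and Itgb1 at 25.7 and 51.3 CPM in Het/tdT and MKO/tdT. Low values shared in those cells can raise r. The genes most like Sgca were Cav3 (r = 0.91), Myh8 (0.90) and Rbm20 (0.89), all known from striated muscle. The closest to Dmd were Nr2f1 (0.88), Cadm4 (0.87) and Gpm6b (0.87), to Itga7 Nr2f2 (0.87), Stard13 (0.86) and Coro2b (0.84), and to Sgcd Fkbp7 (0.87), Lepr (0.86) and Prrx2 (0.84). Dag1 was closest to Fxr1, Mrfap1 and Purb (all 0.93), Utrn to Rhoa (0.94), Zbtb1 and Numb (both 0.93), Itgb1 to Tpm4, Dnajb1 and Nufip2 (0.96, 0.96 and 0.95), Itga6 to Notch1, Ctnna1 and Sypl (0.89, 0.88 and 0.85) and Sgcb to Wfs1, Jam3 and Ptdss2 (0.88, 0.87 and 0.85). Between members, Utrn and Itgb1 were the most alike (0.87) and Dmd and Sgca the least (-0.13).

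In Het/tdT Sgca was lower in osteoblast-like cells (5.51 CPM) than in Pax7-positive (8.85 CPM) and Myog-high cells (22.5 CPM). The muscle transcripts Mylpf, Actc1 and Myog were lower by far more, together at 33.3 CPM against 299 and 5350 CPM. Relative to those transcripts, Sgca was therefore higher in osteoblast-like cells than in either muscle population. In Het/tdT its UMIs there numbered 19, in 17 of 171 cells (9.94%, exact Clopper-Pearson interval 5.90 to 15.4, median depth 18093 UMIs). Of chondrocyte-like cells, 5 of 1926 held the gene (0.260%, 0.0843 to 0.605, median depth 12834). Per 1000 UMIs of the muscle transcripts Mylpf, Actc1 and Myog, Sgca had 165 UMIs in osteoblast-like cells, which held only 115 UMIs of those transcripts. It had 4.21 in Myog-high, 29.6 in Pax7-positive, 3.65 in fibroblast-like and 3.93 in chondrocyte-like cells of Het/tdT. Tendon-like cells had 19.5 and Schwann-like cells 14.9, the latter on 1 Sgca UMI. In MKO/tdT osteoblast-like cells held 3 Sgca UMIs in 90 cells, 1.78 CPM (0.368 to 5.21). Per 1000 UMIs of the same muscle transcripts, of which these cells held 26, this was 115. Tendon-like, Schwann-like and keratinocyte-like cells had 118, 333 and 100 on 2, 1 and 1 Sgca UMIs. The remaining populations were at or below 46.5. The measure thus did not set osteoblast-like cells apart in MKO/tdT. On the genome Sgca lies tail to tail with Col1a1, the gene of the type I collagen α1 chain, which occupies chr11:94936224-94953042 on the plus strand, 9748 bases from Sgca. Col1a1 was at 11719 CPM in osteoblast-like cells of Het/tdT and 6121 in those of MKO/tdT, and at 3739 CPM in tendon-like cells, the population with the next highest Sgca level outside muscle (1.32 CPM, 5 UMIs). Fibroblast-like cells held 3223 CPM of Col1a1 and 0.290 CPM of Sgca on 3 UMIs. The part of muscle RNA from other cells, or of the neighbouring gene, in these Sgca UMIs was not tested.

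Outside muscle some populations of MKO/tdT were larger, such as 1832 chondrocyte-like and 750 endothelial-like cells. Pericyte-like, neural progenitor-like and Schwann-like cells, at 38, 42 and 42, were about as few as its muscle cells. In most cases outside muscle the members differed by less than 1.5-fold. Erythroid-like cells, in which 8 members held at most 3 UMIs per library, were left out. Over the other 13 populations, muscle included, Dag1 was lower in the library labelled MKO/tdT in 11, a count that 13.8% of 3225 genes reached. In 5 of the 11 the interval lay below 0, which were osteoblast-like (53.3 against 36.3 CPM, -0.56, -1.0 to -0.13), neuron-like (39.9 against 28.4 CPM, -0.49, -0.81 to -0.16), tendon-like (69.1 against 49.4 CPM, -0.48, -0.83 to -0.15), endothelial-like (39.2 against 29.4 CPM, -0.41, -0.66 to -0.16) and chondrocyte-like cells (52.0 against 45.6 CPM, -0.19, -0.30 to -0.07). Pericyte-like and immune-like cells were the exceptions, with intervals that included no difference. The median log2 ratio of all genes within these 13 populations lay between -0.15 and 0.06. The muscle transcripts Mylpf, Actc1 and Myog were also higher outside muscle in Het/tdT. Together they stood at 31.1 to 79.3 CPM in its non-muscle populations and 2.51 to 15.5 CPM in those of MKO/tdT. Whether they were free RNA, and their part in the Dag1 levels, was not tested. Under the sample titles Dag1 would be higher in the mutant in those 11 populations.

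Itga6 was lower in MKO/tdT in 10 of the 13 populations, a count reached by 23.1% of genes. Its interval lay below 0 in 6 of them, among which chondrocyte-like (81.9 against 60.1 CPM, -0.45, -0.54 to -0.35), endothelial-like (227 against 170 CPM, -0.42, -0.52 to -0.31), Schwann-like (236 against 155 CPM, -0.61, -1.0 to -0.22) and tendon-like cells (24.6 against 11.6 CPM, -1.08, -1.80 to -0.42) joined the Pax7-positive cells. The widest gap was in immune-like cells, at 45.9 against 9.36 CPM (-2.29, -2.82 to -1.77). These cells also differed in kind, with the macrophage gene C1qb at 621 and 162 CPM and the mast cell proteases Cma1 at 2609 and 7011 CPM and Cpa3 at 2717 and 4478 CPM in Het/tdT and MKO/tdT. Endothelial-like cells held the lymphatic genes Lyve1 at 280 and 410 CPM and Ccl21a at 2745 and 3894 CPM. The lymphatic gene Prox1, at 276 and 309 CPM, and the endothelial gene Emcn, at 343 and 362 CPM, differed less. The part of these differences in the Itga6 levels was not tested.

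Itgb1 differed in the other direction. It was higher in MKO/tdT in 9 of 13 populations, which 27.7% of genes reached, with 6 intervals above 0 and 1 below. Keratinocyte-like cells (319 against 455 CPM, 0.51, 0.35 to 0.68), tendon-like (474 against 583 CPM, 0.30, 0.19 to 0.40), endothelial-like (610 against 698 CPM, 0.19, 0.14 to 0.25) and fibroblast-like cells (509 against 575 CPM, 0.18, 0.11 to 0.24) were among those above. All 6 intervals above 0 were in non-muscle populations and, save for keratinocyte-like cells, at log2 ratios of at most 0.30. Utrn was lower in 8 and higher in 5 of the 13, with intervals below 0 in Myog-high, osteoblast-like (107 against 82.0 CPM, -0.39, -0.68 to -0.10) and chondrocyte-like cells (89.3 against 80.1 CPM, -0.16, -0.24 to -0.07).

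**Figure D5:**
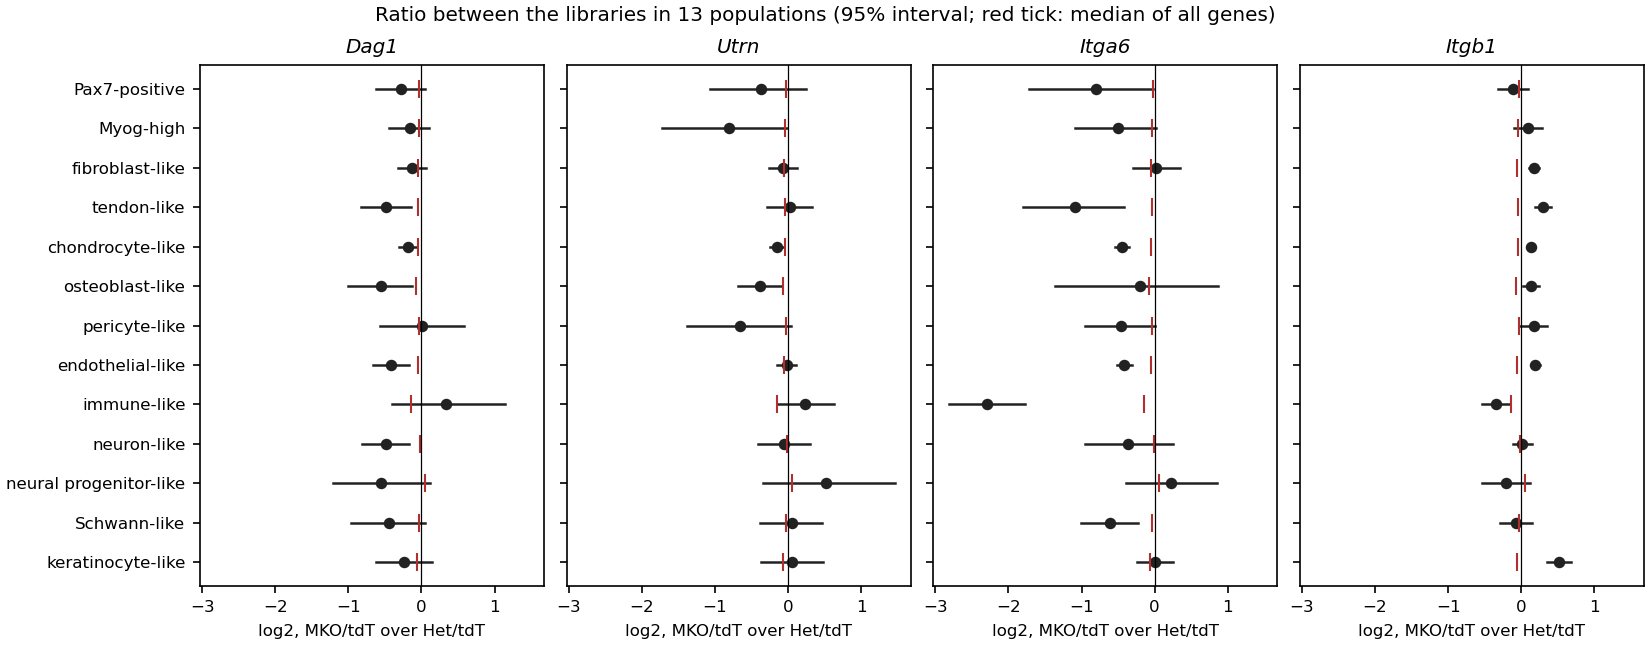
Log2 ratio of the library labelled MKO/tdT over the library labelled Het/tdT (x axis, exact 95% interval) of Dag1, Utrn, Itga6 and Itgb1 in 13 populations (rows), with the median of all genes of the population as a red tick. Dag1 lies left of 0 in 11 populations and Itga6 in 10, Itgb1 lies right of 0 in 9, and the Itga6 point of immune-like cells at -2.29 is the farthest out.

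The remaining members had enough UMIs in fewer populations. Sgcb was higher in MKO/tdT in tendon-like cells (28.8 against 47.4 CPM, 0.72, 0.31 to 1.12), the only 1 of 10 populations whose interval left out no difference. Sgcd was lower in chondrocyte-like cells (22.2 against 18.2 CPM, -0.28, -0.46 to -0.10) and had intervals that included no difference in the other 6. Dmd was higher in MKO/tdT in 7 of 8 populations, with every interval including no difference, and a median log2 ratio of 0.40. The share of all genes that reach this count was not taken, so the count is not read as a rise. Itga7 was lower in 3 and higher in 3 of 6, and among those 6 the Pax7-positive cells were the only population with an interval below 0. Sgca could be compared in Myog-high cells alone.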

How the data were processed

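Single-cell libraries of tdT+ cells were compared, 1 per genotype. The authors deposited counts, that is UMIs per gene and barcode, made with Cell Ranger on mm10 with introns not included, down-sampling reads to merge the libraries (the submitters' processing notes name version 3.1.0, the matrix header another). Barcodes were assigned to libraries by their suffix and the number of cells in the authors' summaries. The members and lists were chosen with earlier results of these data known. Some genes of the lists and markers are not reported here, and list counts leave them out.

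Barcodes stayed in if their log10 UMIs and log10 genes lay no more than 2 SD from the library's mean and mitochondrial UMIs made up at most 10%. UMIs were summed per population and library and divided by the total (156093779 and 128116615 UMIs were deposited). Levels carry exact Poisson, shares exact Clopper-Pearson and ratios exact conditional binomial intervals at 95%, which cover counting error only. Their code was run on simulated Poisson and binomial counts, which cannot check the intervals against spread between cells. Doublets were treated only by leaving out cells that met 2 populations. Named genes are the 9 members, Srsf2, list genes past 1.5-fold with an interval off 0 (at most the 3 largest per list and comparison; Sntb2, Dtna, Dtnb, Sgce, Lama2, Col1a1, Itgb1bp2 where it missed the UMI limit, Myh3 at 0 UMIs, and the subtype and cycle genes were named after their values were seen), and for likeness the 3 closest genes per member. Alternatives changed filters, limits, denominator, weighting and depth. Python 3.11.15, NumPy 2.4.6 and SciPy 1.17.1 were used.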

Additional observations from a re-analysis of the deposited data

Results flagged for a closer look

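Itgb1 differed between the libraries in opposite directions in different populations. It was lower in the library labelled MKO/tdT in immune-like cells (log2 ratio -0.34, -0.53 to -0.15) and higher in keratinocyte-like cells (0.51, 0.35 to 0.68), a gap of 0.86 on the log2 scale between the ratios. With 1 library per genotype the difference was not tested, and the immune-like cells of the libraries also differed in macrophage and mast cell genes. Under the titles of the deposited samples both directions change sign.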

How the results depend on the processing

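Of 266 alternative values of the 27 member ratios in the 4 muscle comparisons, 257 stayed within the 95% interval of the reported ratio. One reversed, that of Utrn between the libraries in Myog-high cells, to 0.37 with each cell thinned to 2000 UMIs, where MKO/tdT held 3 Utrn UMIs. The other 8 lay outside the interval, 7 of them under thinning, which also put Dag1 at 0.04 and Sgcd at -0.77 between the populations of Het/tdT. Itga6 then held 73 UMIs in 1091 Pax7-positive and 107 in 931 Myog-high cells of Het/tdT, which is past 1.5-fold. Thinning by construction leaves few UMIs and brought the counts of members past 1.5-fold to 0 in both comparisons between libraries and in the populations of MKO/tdT, as did asking for at least 30 expected UMIs. Between the libraries in Pax7-positive cells, 2 members became 1 with at least 2 Pax7 UMIs (Itga6), with muscle cells of a second population kept (Itga7, chosen after seeing the data) and past 2-fold (Itga7). In Myog-high cells, 1 member became 2 with a mitochondrial limit of 5% (Itga6 added), with muscle cells of a second population kept or with 5 expected UMIs (Itga7 added), and 0 past 2-fold. Between the populations of Het/tdT, 5 became 3 past 2-fold (Dmd, Sgca and Sgcb). In MKO/tdT, 4 became 2 with the mitochondrial limit of 5% or with at least 2 Pax7 UMIs (Utrn and Sgcb). Leaving out barcodes found in both libraries, also chosen after seeing the data, changed none of these counts by over 1.5 times. The number of populations with Dag1 lower in MKO/tdT stayed within 1.5 times of 11 under the 3 alternatives run. No paired analysis was possible because each genotype had 1 library. The small number of muscle cells in MKO/tdT limits what can be seen there, since 3 UMIs over the 37 Pax7-positive cells are 4.85 CPM.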
